A study of Mus musculus with 8 samples.

Results

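Periostin, the tenascins and the thrombospondins are matricellular proteins, which are secreted into the extracellular matrix and act there on cells and on other matrix proteins more than as structural fibres. The transcripts of 10 genes, for such proteins and for the matrix scaffold fibronectin, were followed in the left ventricle of mice with dilated cardiomyopathy. The genes were Postn (periostin), Tnc and Tnxb (tenascins C and X), Thbs1, Thbs2, Thbs3 and Thbs4 (thrombospondins), Spp1 (osteopontin), Sparc and Fn1 (fibronectin). They were picked by symbol from the 55385 genes of the deposited count table, each symbol matched 1 row, and all 10 were among the 15314 genes that passed the filter on low counts. RNA-seq was done on 8 left ventricle samples of male C57BL6 mice, with 4 samples of Mst1-TG animals and 4 of WT animals. Mst1-TG mice carry a transgene for Mst1, a kinase of the Hippo pathway, under the alpha-myosin heavy chain promoter, so that it is made in cardiomyocytes only, and the labels give their disease as experimental dilated cardiomyopathy. WT mice are their littermates without the transgene, labelled as controls, and neither group carries another allele or treatment in its labels. The series' design text gives an age of 3 weeks, the extraction protocol says 3 months, and the growth protocol also names adults of 5.5 months. Which of these ages applies to the samples is not settled.

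Periostin binds integrins that contain the alpha V subunit, helps collagen to be cross-linked, and in the heart is known as a product of activated fibroblasts. Tenascin C is a large glycoprotein that loosens cell adhesion and is made in developing and injured tissue, whereas tenascin X associates with collagen fibrils in resting connective tissue. Thbs1 and Thbs2 form trimers, and Thbs3 and Thbs4 form pentamers. Thbs1 can activate latent TGF-beta and binds CD47 and CD36, and Thbs4 has been linked in heart muscle to the ATF6 branch of the endoplasmic reticulum stress response. Osteopontin is a ligand of integrins and CD44 that macrophages can make, Sparc binds collagen and takes part in its processing, and fibronectin is an integrin-binding scaffold on which other matrix proteins assemble.

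The libraries held 21193536 to 23809256 estimated counts. Stk4, the mouse gene for the Mst1 kinase, was at 25.2 to 29.6 CPM in the WT libraries and 1449 to 1747 CPM in Mst1-TG libraries, in the direction of the labels. Mitochondrially encoded genes took 21.4% to 23.8% of the counts in WT and 12.9% to 14.4% in Mst1-TG, and on the second principal component WT 4 was distant from WT 1 to 3. CPM (library-size-scaled counts) are scaled by TMM factors, which correct for such differences in composition, fold changes are Mst1-TG over WT, a log2 fold change is given with its standard error (SE), and a gene is said to rise or fall where its adjusted p in edgeR's quasi-likelihood test was below 0.05.

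Of the 10 genes, 8 rose in Mst1-TG, none fell, and Thbs2 and Spp1 did not pass. Over all genes tested, 21.2% were called higher. Thbs4 rose most, by 23.2-fold, followed by Postn (5.75-fold), Thbs1 (3.70-fold), Fn1 (2.56-fold), Thbs3 (2.33-fold), Tnc (2.22-fold), Sparc (1.76-fold) and Tnxb (1.29-fold). The first 6 of these were at least 2-fold higher, and 5.81% of all genes were both called higher and at least 2-fold higher. In the same 8 genes every Mst1-TG library lay above every WT library, which held for 20.2% of all genes. The median log2 fold change of the 10 genes was 1.19, against 0.01 over all genes tested. By fold change Thbs4 stood at rank 30 and Postn at rank 141 of the 15314 genes. These are levels in whole tissue, in which more cells of a type and more RNA per cell cannot be told apart.

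**Figure D1:**
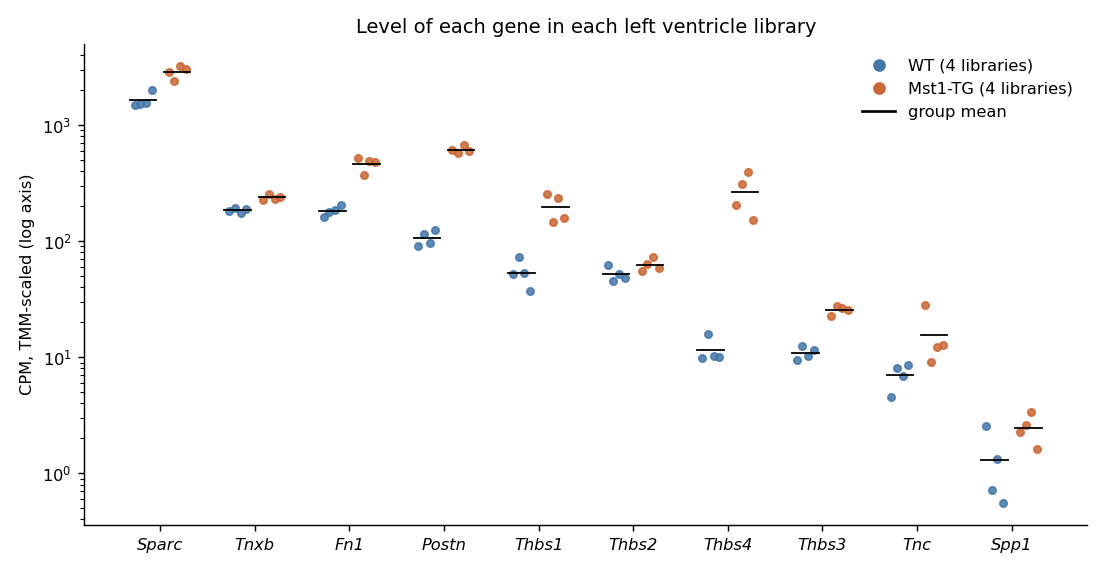
CPM of each of the 10 genes (log axis) in the 4 WT libraries (blue) and the 4 Mst1-TG libraries (orange), with black bars for group means. Only Thbs2 and Spp1 have libraries of both groups at the same height, and the gap is widest for Thbs4, at 9.77 to 15.9 CPM for WT and 153 to 396 for Mst1-TG.

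Postn (ENSMUSG00000027750.16, chromosome 3 from 54361109 to 54391037, forward strand, in GRCm38 as are all gene positions here) rose with little spread between libraries. Its level was 91.5, 115, 96.6 and 124 CPM in WT 1 to 4 and 615, 576, 669 and 593 CPM in Mst1-TG 1 to 4. The lowest Mst1-TG library was thus far above the highest WT library, and the spread within each group was small beside the gap. Group means were 107 ± 15.3 and 613 ± 40.1 CPM (SD, n = 4 each), giving a log2 fold change of 2.52 ± 0.10 (edgeR adjusted p = 3.3e-09). No 31-base word of its transcripts in GENCODE M21 is shared with another gene there. With that annotation its counts would not depend on how shared reads were divided, but the annotation used for counting is not given.

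Both tenascins rose, and the difference between their changes did not pass (given with the family ratios). Tnxb (ENSMUSG00000033327.18, chromosome 17 from 34670535 to 34719815, forward strand) was at 183, 193, 174 and 191 CPM in WT 1 to 4 and at 228, 255, 233 and 242 CPM in Mst1-TG 1 to 4. The groups did not overlap, but they lay close together, and the rise was small and even (log2 fold change 0.37 ± 0.06, edgeR adjusted p = 4.2e-04). Of its 31-base words, 9.70% also occur in the same orientation in other genes, nearly all of them in Tnxa, a partial copy that received 4 counts in each group.

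Tnc (ENSMUSG00000028364.15, chromosome 4 from 63959785 to 64047015, reverse strand) was at 4.53, 8.12, 6.85 and 8.62 CPM in WT 1 to 4 and at 28.2, 9.11, 12.2 and 12.6 CPM in Mst1-TG 1 to 4. Mst1-TG 1 was the highest of the 8 libraries by a wide margin, and Mst1-TG 2 was only just above WT 4. The group means, 7.03 ± 1.82 CPM for WT against 15.5 ± 8.59 CPM for Mst1-TG (SD, n = 4 each), gave a log2 fold change of 1.15 ± 0.38 that passed narrowly (edgeR adjusted p = 0.041). Without Mst1-TG 1 the log2 fold change was 0.69, and the gene still passed (adjusted p = 0.016). The call was lost without Mst1-TG 3 (1.25, adjusted p = 0.063), Mst1-TG 4 (1.24, 0.0503), WT 1 (0.98, 0.092), WT 2 (1.22, 0.074), WT 3 (1.13, 0.084) or WT 4 (1.26, 0.062), and without a filter on low counts (1.16, 0.138).

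Among the thrombospondins Thbs4, Thbs1 and Thbs3 rose and Thbs2 did not pass. Thbs4 (ENSMUSG00000021702.7, chromosome 13 from 92751590 to 92794818, reverse strand) was at 9.77, 15.9, 10.3 and 9.98 CPM in WT 1 to 4 and at 205, 313, 396 and 153 CPM in Mst1-TG 1 to 4. The Mst1-TG libraries differed among themselves by more than 2-fold, yet the lowest of them was far above the highest WT library. Between means of 11.5 ± 2.96 and 266 ± 109 CPM (SD, n = 4 each), the log2 fold change was 4.54 ± 0.38 (edgeR adjusted p = 5.9e-05), a fold change with a 95% interval from 12.5 to 43.1. Thbs3, the pentameric relative on chromosome 3 (ENSMUSG00000028047.11, 89215180 to 89226837, forward strand), was at 9.44, 12.6, 10.2 and 11.5 CPM in WT 1 to 4 and at 22.7, 27.4, 26.3 and 25.6 CPM in Mst1-TG 1 to 4. It started from the same CPM as Thbs4 and was even within each group, and its rise was 1.22 ± 0.10 on the log2 scale (edgeR adjusted p = 6.5e-07). Its exons overlap those of Mtx1 on the opposite strand over 318 bases, or 6.59% of its exon length, and the strand setting of the counting is not given in the sources used here.

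Thbs1 (ENSMUSG00000040152.8, chromosome 2 from 118111876 to 118127133, forward strand) was at 52.3, 72.5, 53.0 and 36.9 CPM in WT 1 to 4 and at 256, 145, 234 and 159 CPM in Mst1-TG 1 to 4. The groups were apart, with Mst1-TG 1 and 3 above Mst1-TG 2 and 4, and the log2 fold change was 1.89 ± 0.26 (edgeR adjusted p = 6.1e-04). Thbs2 (ENSMUSG00000023885.9, chromosome 17 from 14665500 to 14694235, reverse strand), its closest relative, was at 62.6, 45.1, 51.7 and 47.9 CPM in WT 1 to 4 and at 55.2, 63.5, 72.4 and 58.8 CPM in Mst1-TG 1 to 4. WT 1 was higher than Mst1-TG 1 and Mst1-TG 4, so the groups overlapped. At 1.21-fold (95% interval 1.02 to 1.42, log2 0.27 ± 0.11, edgeR adjusted p = 0.063) Thbs2 did not pass. It did pass without WT 1 (log2 0.37, adjusted p = 0.0093) and without Mst1-TG 1 (0.32, 0.034). Upper quartile scaling (0.318, 0.0339) and the fit without a filter on low counts (0.28, 0.0023) also let it pass.

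Members of 1 family were compared directly through their log2 ratio within each library, by an exact two-sided permutation test whose p cannot go below 0.0286 with 4 libraries a group. The Thbs1 to Thbs2 ratio was 0.02 ± 0.48 in WT and 1.63 ± 0.44 in Mst1-TG (SD, n = 4 each, log2 of CPM), so that Thbs1 gained 3.06-fold on Thbs2 (exact permutation p = 0.0286, adjusted over the 3 ratios tested 0.0429). Without Mst1-TG 1 the same difference was 1.42 (exact permutation p = 0.0571). The Thbs4 to Thbs3 ratio went from 0.05 ± 0.23 to 3.29 ± 0.56 (SD, n = 4 each), a gain of 9.47-fold for Thbs4 (exact permutation p = 0.0286, adjusted 0.0429). For Tnc to Tnxb the libraries overlapped, at -4.76 ± 0.39 for WT and -4.08 ± 0.76 for Mst1-TG (SD, n = 4 each; exact permutation p = 0.171, adjusted 0.171). Without Mst1-TG 2, this difference was 0.92 rather than 0.68 (exact permutation p = 0.0286, not adjusted). With any other library left out, the exact permutation p was 0.171 to 0.371.

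Since the thrombospondins behaved so differently, the 250 bases before their start sites are shown, with those of Postn. RefSeq (GRCm38.p6) gave upstream sequence for 8 of the 10 genes, all but Thbs1 and Fn1. The word GGAATG, which TEAD factors (the DNA-binding partners of the Hippo effectors YAP and TAZ) recognise, was searched on both strands, together with TGACTCA of AP-1 and TATAAA of the TATA box. Capitals mark a match on either strand, so that CATTCC is GGAATG on the other strand and TTTATA is TATAAA on the other strand.
Thbs4 upstream, chr13:92794819-92795068, reverse strand: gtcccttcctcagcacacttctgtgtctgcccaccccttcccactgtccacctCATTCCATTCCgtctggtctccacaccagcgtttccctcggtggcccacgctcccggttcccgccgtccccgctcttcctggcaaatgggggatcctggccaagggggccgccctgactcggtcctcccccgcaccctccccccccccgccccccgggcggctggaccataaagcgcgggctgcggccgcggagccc
Thbs3 upstream, chr3:89214930-89215179, forward strand: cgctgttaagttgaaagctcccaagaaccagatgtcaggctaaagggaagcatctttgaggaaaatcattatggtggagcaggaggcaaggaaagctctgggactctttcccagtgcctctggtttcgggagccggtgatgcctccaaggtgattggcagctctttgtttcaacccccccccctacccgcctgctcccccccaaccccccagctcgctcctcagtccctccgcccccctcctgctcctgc
Thbs2 upstream, chr17:14694263-14694512, reverse strand: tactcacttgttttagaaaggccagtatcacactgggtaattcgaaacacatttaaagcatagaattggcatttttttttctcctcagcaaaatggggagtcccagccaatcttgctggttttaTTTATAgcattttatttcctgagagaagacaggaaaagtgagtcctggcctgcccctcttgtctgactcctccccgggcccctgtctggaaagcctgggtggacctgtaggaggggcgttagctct
Postn upstream, chr3:54360857-54361106, forward strand: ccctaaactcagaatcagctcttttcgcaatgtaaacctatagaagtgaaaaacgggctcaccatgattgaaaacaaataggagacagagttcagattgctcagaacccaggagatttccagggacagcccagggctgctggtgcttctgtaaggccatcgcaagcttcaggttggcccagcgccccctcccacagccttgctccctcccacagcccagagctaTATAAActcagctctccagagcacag

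Thbs4 was the only one of the 8 genes with GGAATG in this window. It held 2 matches, both on the strand opposite to transcription, 197 and 192 bases before the start and overlapping by 1 base. Among all 32851 RefSeq start sites with such a window, 12.6% held the word, so a match in 1 of 8 genes is near that share. TATAAA or its complement was in windows of 4 of the 8 genes (Postn, Tnc, Spp1 and Thbs2), 5 of the 11 windows of the 8 genes, against 12.4% of all windows. The 2 windows of Tnc overlap and hold the same TATAAA, 126 and 205 bases before their starts, so that 1 site is counted in both. A gene with 2 windows also has more room for a match than a single window. In Spp1 and Thbs2 the word stood 211 and 126 bases before the start. In Postn the word stood 26 bases before the downstream start. TGACTCA or its complement was found in 4.46% of all windows and, of these genes, in that of Tnxb, 55 bases before the start. A match says only that the letters are there, and their absence from a window of this size says nothing of more distant sites.

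Sparc (ENSMUSG00000018593.13, chromosome 11 from 55394500 to 55423183, reverse strand) was the most abundant of the 10 genes, with 72.9% of their summed counts in WT and 60.5% in Mst1-TG. It was at 1485, 1516, 1556 and 2017 CPM in WT 1 to 4 and at 2866, 2382, 3236 and 3067 CPM in Mst1-TG 1 to 4. WT 4 stood above the other WT libraries and Mst1-TG 2 below the other Mst1-TG libraries, but the groups did not meet. The log2 fold change was 0.81 ± 0.12 (edgeR adjusted p = 1.1e-04), and 0.93 without WT 4.

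Fn1 (ENSMUSG00000026193.15, chromosome 1 from 71585520 to 71653200, reverse strand) was at 162, 177, 184 and 207 CPM in WT 1 to 4 and at 524, 374, 488 and 479 CPM in Mst1-TG 1 to 4. Mst1-TG 2 was again the lowest of its group and still well above WT 4. The log2 fold change was 1.35 ± 0.11 (edgeR adjusted p = 5.3e-07).

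Spp1 (ENSMUSG00000029304.14, chromosome 5 from 104435118 to 104441050, forward strand) was the least abundant, with 107 counts over the WT libraries and 237 over the Mst1-TG libraries. Its level was 2.55, 0.724, 1.33 and 0.554 CPM in WT 1 to 4 and 2.27, 2.59, 3.34 and 1.63 CPM in Mst1-TG 1 to 4. WT 1 was as high as the Mst1-TG libraries, and the groups overlapped. The difference of 1.89-fold (95% interval 1.02 to 3.50; log2 0.92 ± 0.41) did not pass (edgeR adjusted p = 0.092). It passed without WT 1 (log2 1.48, adjusted p = 0.0055), with limma-voom (1.09, 0.044) and without a filter on low counts (0.92, 0.0038). Of its 31-base words 14.3% are shared, almost all with Gm42793, a model on the same strand that received 3 counts in WT and 2 in Mst1-TG.

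**Figure D2:**
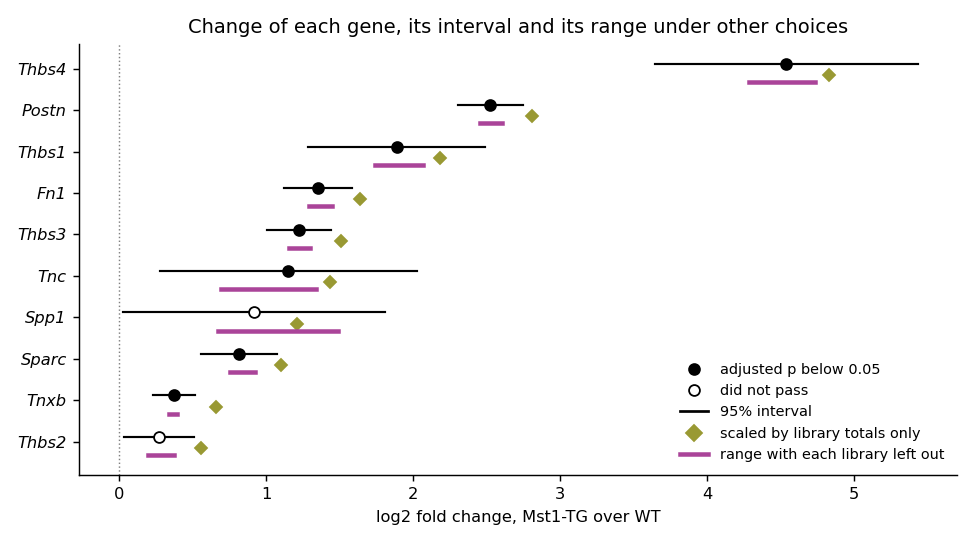
Log2 fold change of each gene, Mst1-TG over WT (circles, filled where the edgeR adjusted p was below 0.05) with its 95% interval (black line), the value with library totals as the only scaling (diamonds) and the range when each library was left out in turn (purple bars). All values lie above 0, and the intervals are widest for Spp1, Thbs4 and Tnc.

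Scaling shifted all of these values alike. When counts were divided by library totals alone, the median of all genes moved from 0.01 to 0.29 on the log2 scale. The log2 fold change then was 4.83 for Thbs4, 2.81 for Postn, 0.56 for Thbs2 and 1.21 for Spp1, and Thbs2 and Spp1 passed (edgeR adjusted p = 9.8e-04 and 0.022), each a gain of about the same size as that of the median gene.

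Levels of different genes were compared on a scale per length, counts per kb of exon brought to the same sum in each library (as in TPM), with exon lengths from GENCODE M21. This scale has no TMM correction, so it serves for the order of genes within a group and not for differences between groups. In WT, Sparc led at 832 ± 165 (SD, n = 4), followed by Fn1 at 29.9 ± 4.36, Tnxb at 28.9 ± 1.97 and Postn at 23.5 ± 4.14, which overlapped one another. Thbs1 (16.8 ± 4.10) and Thbs2 (14.1 ± 1.83) came next and also overlapped, as did Thbs1 with Postn, then Thbs4 (6.65 ± 1.59), Thbs3 (4.33 ± 0.614), Tnc (1.74 ± 0.497) and Spp1 (1.47 ± 0.989), of which Tnc and Spp1 overlapped. In Mst1-TG, Sparc stayed in front at 2105 ± 309 (SD, n = 4), but Thbs4 at 225 ± 96.0 and Postn at 195 ± 18.5 now followed it and overlapped each other. Fn1 (110 ± 17.2) and Thbs1 (90.6 ± 27.2) overlapped as well, the lowest library of Thbs4 (125) lay within the range of Fn1 (86.1 to 125), and Tnxb (54.0 ± 1.73) and Thbs2 (24.6 ± 3.42) lay below them. With the length of the longest transcript instead of all exons, Postn was above Thbs4 in Mst1-TG (270 ± 24.9 against 192 ± 82.0) and above Tnxb in WT (33.5 ± 5.79 against 24.8 ± 1.60), so the order among these neighbours depends on the length used.

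**Figure D3:**
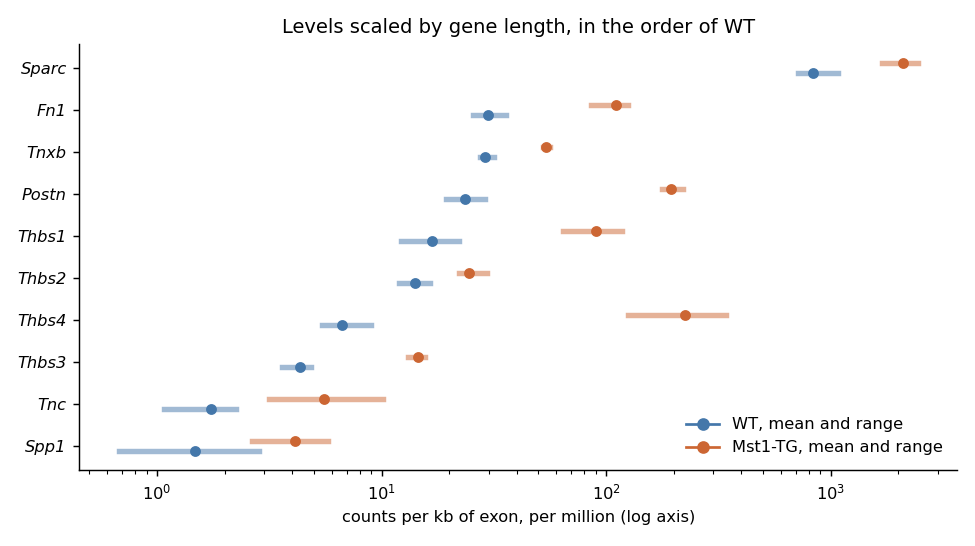
Counts per kb of exon, brought to the same sum in each library (log axis), for each gene, as mean (point) and range over 4 libraries (bar) in WT (blue) and Mst1-TG (orange), ordered by the WT mean. Within WT Thbs4 (6.65) stands below Thbs2, and within Mst1-TG (225) it stands beside Postn.

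Several of these genes are known products of fibroblasts, and fibroblast markers were higher in the same libraries. Of 10 fibroblast markers 8 rose and none fell, against 21.2% of all genes called higher and 21.1% called lower. The summed level of these markers was 2612.5 to 2999.5 CPM for WT and 4161 to 4746.5 for Mst1-TG. Mfap5, Pdgfra and Dcn rose by 2.25 ± 0.12, 1.13 ± 0.08 and 1.21 ± 0.09 on the log2 scale (SE). Each of the 10 genes was therefore also expressed as a percentage of this sum within each library, as a description. Thbs4 went from 0.407% ± 0.115 to 5.84% ± 2.28 (SD, n = 4 each) and Postn from 3.75% ± 0.512 to 13.6% ± 1.15, and both stayed clear of the WT range. Thbs1, Fn1 and Thbs3 were 2.30, 1.61 and 1.46 times as high relative to the markers, without overlap between groups. Sparc, Tnc and Spp1 overlapped. Tnxb went from 6.51% ± 0.361 to 5.30% ± 0.404 and Thbs2 from 1.82% ± 0.249 to 1.38% ± 0.170 (SD, n = 4 each), with all Mst1-TG libraries below all WT libraries. Because the marker sum itself was higher in Mst1-TG, 66.3% of all genes tested were lower without overlap on this scale and 4% were higher, so the lower ratios of Tnxb and Thbs2 were the common case.

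The values differed with the reference. Gsn, which muscle also makes, held a large share of the marker sum, and without it Thbs1, Fn1 and Thbs3 overlapped between groups, at ratios of 1.68, 1.18 and 1.09, while Sparc was lower without overlap, at 0.817. On that scale 2.02% of all genes were higher without overlap and 81.6% lower. Relative to the summed collagens Col1a1, Col1a2 and Col3a1 the shares were 1.44% and 80%. Thbs4 (10.1 times) and Postn (2.44 times) were higher without overlap relative to the collagens, and Thbs1, Fn1 and Thbs3 overlapped. Sparc (0.736 times), Tnxb (0.547) and Thbs2 (0.498) were lower without overlap. Mean log2 ratios that were above 0 relative to the markers were below 0 relative to the collagens for Thbs3 (-0.031, against 0.56), Tnc (-0.21, against 0.38), Spp1 (-0.12, against 0.47) and Sparc (-0.44, against 0.14), of which Tnc and Spp1 overlapped on both scales.

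A list of 8 markers of activated fibroblasts served as a further reference. Thbs4 was 16.0 and Postn 4.01 times as high relative to its sum, without overlap. Thbs1 (2.48 times), Fn1 (1.76 times) and Thbs3 (1.63 times) were also higher without overlap. Tnxb, Thbs2, Sparc, Tnc and Spp1 overlapped. On this scale 3.74% of all genes were higher and 41.8% lower without overlap. In WT the sum of the list was mostly Acta2, a smooth muscle gene that fell from 487 ± 117 to 183 ± 57.0 CPM (SD, n = 4 each), against the other markers. In Mst1-TG, where the sum was 852 to 1049 CPM, Acta2 was a smaller part, below Cilp and Mfap4 (204 ± 26.0 CPM). The main gene of this reference thus differed between the groups. Without Acta2 the sum was 158 to 220 CPM for WT and 684 to 889 for Mst1-TG, 0.594% of all genes were higher without overlap and 93.8% lower. Thbs4 was then 5.45 times and Postn 1.39 times as high, both still without overlap. Fn1 (0.615 times), Thbs3 (0.565 times), Sparc (0.424 times), Tnxb (0.312 times) and Thbs2 (0.283 times) were lower without overlap. Thbs1 (0.864 times), Tnc and Spp1 overlapped. In Mst1-TG the largest part of the sum without Acta2 was Cilp, at 335 ± 57.6 CPM against 19.2 ± 4.22 CPM in WT (SD, n = 4 each). Ratios to this sum are therefore weighted toward that gene. The references without Gsn and without Acta2 were chosen after seeing the data. How far the number of fibroblasts accounts for any of these levels was not tested.

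**Figure D4:**
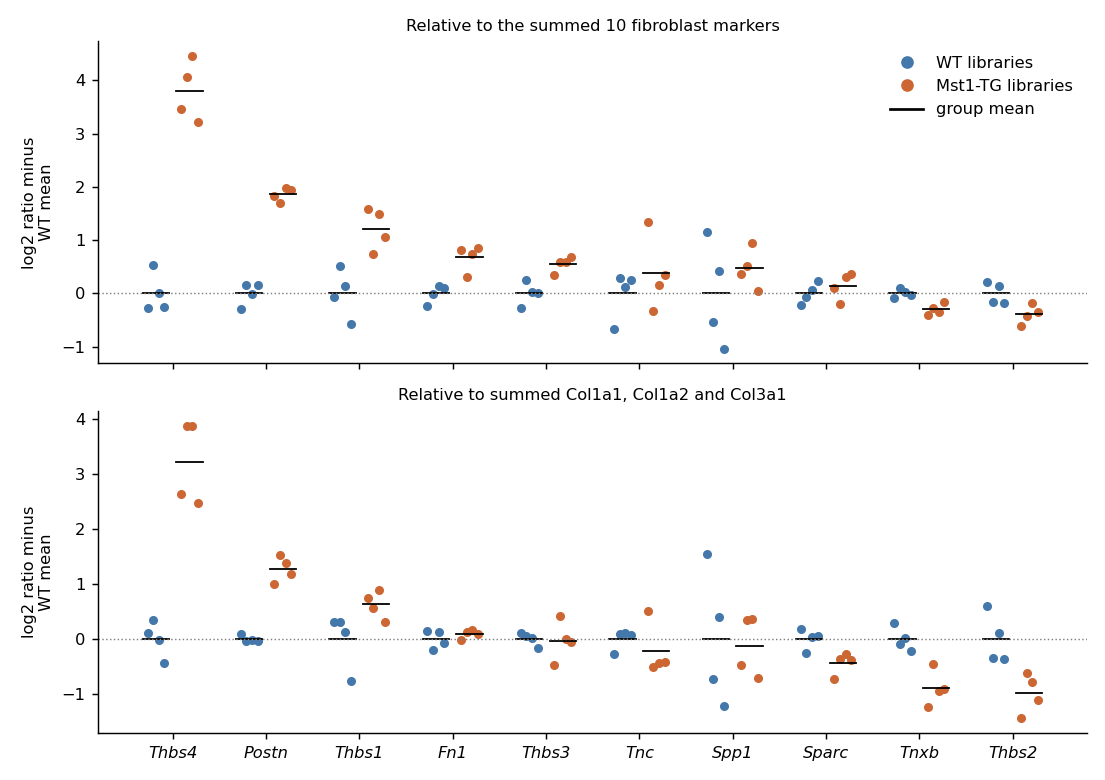
Each gene relative to the summed 10 fibroblast markers (top) and to summed Col1a1, Col1a2 and Col3a1 (bottom), as the log2 ratio in each library minus the WT mean, for WT (blue) and Mst1-TG (orange) libraries with black bars for group means. Thbs4 and Postn lie above WT in both panels. Their mean log2 ratios are above those of WT by 3.80 and 1.86 for the markers and by 3.21 and 1.27 for the collagens. Tnxb and Thbs2 lie below WT without overlap in both panels, as do 66.3% and 80% of all genes tested.

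Markers of other cell types were examined beside these results, with 21.2% of all genes called higher and 21.1% called lower as the background. In lists this short, 1 or 2 calls are not far from these shares. Cardiomyocyte markers had 5 of 8 lower and none higher, with sums of 39413 to 48129 CPM for WT and 27741 to 37455 for Mst1-TG. Macrophage markers, which bear on Spp1, overlapped in sum (311 to 419 CPM for WT and 358 to 476 for Mst1-TG), with 1 of 10 higher and 1 lower. The exception that rose was Lgals3, at 3.24 ± 0.26 (SE) on the log2 scale. Markers of valve, cartilage and tendon, tissues in which Thbs4 and Tnc are also made, were 2.79 times as high in sum (34.5 to 54.4 CPM for WT and 80.2 to 130 for Mst1-TG), with 4 of 7 higher. Endothelial markers overlapped in sum (1 of 8 higher, 3 lower), as did those of epicardium (2 of 6 higher), lymphocytes (1 of 4 tested lower), Schwann cells (1 of 5 tested higher, 1 lower) and red cells (0 of 5 either way). The sum for smooth muscle and pericytes was higher (2751 to 3146 CPM for WT and 5087 to 5455 for Mst1-TG), mostly through Des, which cardiomyocytes also make, with 2 of 8 higher and 3 lower. No list had a marker at 0 in all libraries, and the part of these cell types in the levels of the 10 genes was not tested.

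Genes around the matricellular proteins were counted in lists, with 21.2% of all genes called higher and 21.1% called lower as the background. Of 14 relatives in the periostin, tenascin, thrombospondin, osteopontin and Sparc families, 9 had enough counts to be tested, and 6 rose and 1 fell, with a median log2 fold change of 0.76. The Sparc relative Fstl1 rose by 1.49 ± 0.11 (SE), the periostin paralogue Tgfbi by 0.76 ± 0.09 and the Sparc family member Smoc1 by 1.08 ± 0.14. Spock3 had 4 counts over the WT libraries and 124 over the Mst1-TG libraries. Tenascin R (Tnr) rose by 1.11 ± 0.35 (edgeR adjusted p = 0.023), but not without Mst1-TG 1 (0.79, adjusted p = 0.081), WT 1 (0.93, 0.067), WT 3 (0.99, 0.071) or WT 4 (1.06, 0.055). Smoc2 was the one that fell, by 0.62 ± 0.08 (SE) on the log2 scale.

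Among 23 receptors of these proteins, integrin subunits, syndecans and scavenger receptors among them, 16 rose and 2 fell, with a median of 0.40. Itgav, the alpha V subunit through which periostin, osteopontin and fibronectin bind, rose from 34.0 ± 1.71 to 68.4 ± 5.38 CPM (SD, n = 4 each; log2 1.01 ± 0.07, edgeR adjusted p = 1.9e-07), and its partner Itgb3 rose by 1.42 ± 0.13. The fibronectin receptor subunit Itga5 rose by 1.14 ± 0.09, the osteopontin receptor Cd44 by 1.59 ± 0.13, the endocytic receptor Lrp1 by 1.01 ± 0.07 and the syndecan Sdc2 by 1.06 ± 0.06. Cd36, a fatty acid transporter that thrombospondins also bind, fell from 1622 ± 95.1 to 1105 ± 161 CPM (SD, n = 4 each; log2 -0.55 ± 0.10, edgeR adjusted p = 7.2e-04). The laminin receptor subunit Itga6 changed by -0.23 ± 0.06 (adjusted p = 0.012), and by 0.059 with library totals only. Itgb6, an epithelial partner of alpha V, averaged 9.35 ± 2.08 CPM for WT against 5.09 ± 2.39 for Mst1-TG (SD, n = 4 each) and did not pass (-0.87 ± 0.33 SE, edgeR adjusted p = 0.056). Itgb6 passed without Mst1-TG 1 (-1.17, adjusted p = 0.011), without WT 3 (-1.02, 0.036), with DESeq2 (-0.88, 0.0087) and with limma-voom (-0.98, 0.021).

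TGF-beta signalling, which Thbs1 can activate and which induces Postn, Tnc and Fn1 in many cells, had 12 of 16 genes higher and none lower (median 0.70). The ligands Tgfb2 and Tgfb3 rose by 1.33 ± 0.07 and 1.34 ± 0.08 (SE), the latency proteins Ltbp3 and Ltbp4 by 1.23 ± 0.07 and 0.80 ± 0.08, the receptor Tgfbr1 by 0.91 ± 0.07 and the Smad corepressor Skil, itself a target of the pathway, by 0.69 ± 0.07. The coreceptor Tgfbr3 was at -0.03 ± 0.11 and did not pass (edgeR adjusted p = 0.86), with a sign that turned under library totals (0.26) and upper quartile scaling (0.018).

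Matrix partners and the enzymes that modify them rose in 16 of 16 cases, with a median of 1.23, close to that of the 10 genes described. Bgn, a small proteoglycan, averaged 270 ± 37.6 CPM in WT libraries and 1061 ± 113 in Mst1-TG libraries (SD, n = 4 each; log2 1.98 ± 0.11, edgeR adjusted p = 3.4e-08). The collagen chain Col5a2 rose by 1.46 ± 0.08, the gelatinase Mmp2 by 1.46 ± 0.08, the collagen cross-linking enzymes Loxl2 and Loxl1 by 1.31 ± 0.10 and 1.16 ± 0.09, and Fam20c, the kinase that phosphorylates osteopontin and other secreted proteins, by 1.32 ± 0.10 (SE).

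The ATF6 branch, to which Thbs4 has been linked, was counted in the same way, beside 21.2% of all genes called higher and 21.1% called lower. Of 14 genes for ATF6 proteins and endoplasmic reticulum chaperones 2 rose and 4 fell, with a median of -0.23 that was 0.060 with library totals only, where 5 were called higher and 2 lower. Without Mst1-TG 1 8 were called lower, and without a filter on low counts 7. The number called higher was 1 without Mst1-TG 3, WT 2 or WT 3. Hspa5, the main chaperone of the compartment, averaged 512 ± 48.0 CPM in WT libraries and 310 ± 55.2 in Mst1-TG libraries (SD, n = 4 each; log2 -0.72 ± 0.11, edgeR adjusted p = 2.5e-04), and Herpud1, which serves protein degradation there, changed by -0.97 ± 0.08. Manf changed by -0.40 ± 0.12 (edgeR adjusted p = 0.016), but did not pass with library totals only (-0.11, adjusted p = 0.45) or without WT 2 (-0.34, 0.051). Hsp90b1 changed by -0.27 ± 0.08 or, with library totals only, by 0.012. The co-chaperone Dnajb11 rose by 0.22 ± 0.06 (SE). Atf6b rose by 0.25 ± 0.08 (edgeR adjusted p = 0.020) with overlapping libraries, and not without Mst1-TG 3 (0.21, adjusted p = 0.063), WT 2 (0.21, 0.066) or WT 3 (0.23, 0.062). Pdia4 (0.08 ± 0.10) and Creld1 (0.06 ± 0.07) were on the higher side and did not pass (edgeR adjusted p = 0.54 and 0.55), though both did with library totals only (0.37 and 0.34, adjusted p = 0.0087 and 0.0014).

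**Figure D5:**
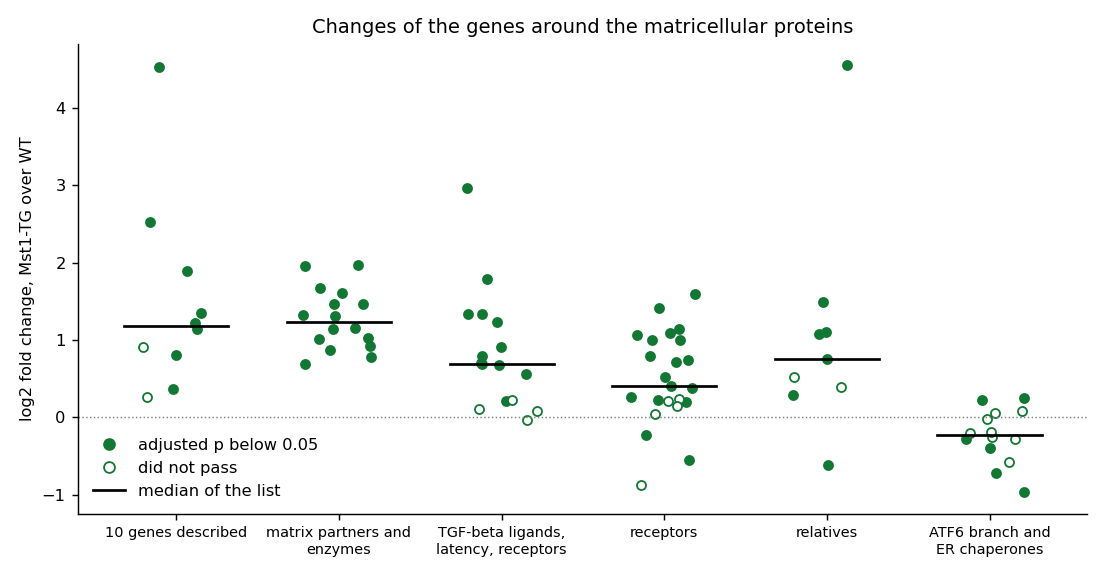
Log2 fold change, Mst1-TG over WT, of each tested gene in the 10 genes described and in 5 lists around them, filled where the edgeR adjusted p was below 0.05, with black bars for list medians. The matrix partners have a median of 1.23, beside 1.19 for the 10 genes, and the ATF6 branch and chaperones have a median of -0.23.

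For each gene the most similar patterns over the 8 libraries were taken by Pearson correlation of log2 CPM, as a description in which the gap between the groups carries most of the likeness. Postn was most like Fam129a (0.999), Col5a2 (0.998) and Col8a1 (0.998), a network-forming collagen that rose by 2.98 ± 0.09 (SE). Thbs1 was most like the kinase Camkk1 (0.998), Thbs4 like the deiodinase Dio2 (0.996) and the receptor Ephb6 (0.996), Thbs3 like Nlrc3 (0.996), Tnc like Anks6 (0.987) and Tnxb like Cdk5rap2 (0.991). Fn1 was most like Dap (0.998) and the membrane metalloprotease Mmp14 (0.997), Sparc like the heparan sulphate enzyme Hs2st1 (0.996), Thbs2 like Os9 (0.973) and Spp1 like Tkfc (0.967). Deviations of libraries from their group means leave the group difference out. In them Thbs4 was most like Boc (0.971), then Comp (0.955), the remaining pentameric thrombospondin, and Sparc like Cdc42 (0.986), then Vim (0.984). Thbs1 was again most like Camkk1 (0.987), and Postn like Exd2 (0.989), then Fbn1 (0.972). Among the 10 genes themselves these deviations were most alike for Thbs2 and Spp1 (0.859) and for Sparc and Fn1 (0.835), and most opposed for Tnc and Thbs2 (-0.726). All of these are extremes picked from many correlations over only 8 libraries, and how far chance alone would take them was not tested.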

How the data were processed

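Left ventricle RNA of 8 samples was sequenced after ribosomal RNA depletion of 200 ng total RNA with a directional library kit, per the labels' protocols. The authors deposited 1 table of estimated counts per gene, not scaled for library size. Bcl2fastq 2.19.1.403 and kallisto 0.46.0 are named in the submitters' processing notes. For annotation, genome build and strand setting, the sources used here give nothing. The deposited estimated counts are whole numbers.

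The tests were run with edgeR 4.0.16 under R 4.3.3: filterByExpr (minimum count 10, minimum total 15), TMM factors, robust quasi-likelihood F test by group, Benjamini-Hochberg adjustment over all 15314 genes tested, threshold 0.05. The biological coefficient of variation was 11.4% and the median SE of a log2 fold change 0.111. The SE comes from the size of the log2 fold change and the square root of F, and intervals use the fit's own degrees of freedom. CPM are counts scaled to library size, here with TMM factors. The fit was also run on simulated counts in which all genes had the same dispersion. That run does not bear on genes of wider spread, such as Tnc or Spp1, and its outcome is not used here. Alternatives used DESeq2 1.42.0, limma 3.58.1 (voom), other scalings and filters, a minimum fold change, a replicate block and each library left out.

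The 10 genes and the gene lists were chosen with earlier results of these data known. Named genes are the 10, the 6 with the smallest p in each list and those against its majority, up to 3 per cell type list, and the 3 most correlated genes of each, of which some are left out of the text. The labels do not say that samples are separate animals, so p-values measure the spread between samples, and same-group libraries were further apart than sampling noise allows (7.92 to 23.4 as chi-square over its degrees of freedom). Coordinates, exon lengths (55144 of 55385 genes matched) and shared 31-base words come from GENCODE M21 (GRCm38), and upstream sequences from RefSeq. The version of the Tnxb identifier in the deposited counts is not the one in M21.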

Additional observations from a re-analysis of the deposited data

Results flagged for a closer look

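Among the WT libraries, Thbs4 in WT 2 (15.9 CPM) and Sparc in WT 4 (2017 CPM) stood apart from the other 3 libraries of their group, which were at 9.77 to 10.3 CPM and at 1485 to 1556 CPM. In each case the gap to the nearest library took up more of the group's range (0.911 for Thbs4 and 0.866 for Sparc) than Dixon's 95% critical value. Chance marks about 1 in 20 groups in this way, and 20 were examined. Without WT 2 the log2 fold change of Thbs4 was 4.73 (edgeR adjusted p = 2.1e-04), against 4.54 with it. Without WT 4 that of Sparc was 0.93 (edgeR adjusted p = 3.1e-05), against 0.81.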

How the results depend on the processing

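Over 18 alternatives none of the 10 genes changed sign. Of 180 values 159 kept their side of the threshold, 11 lost a call (9 of them Tnc) and 10 gained one (Thbs2 or Spp1), and Postn, Thbs1, Thbs3, Thbs4 and Fn1 passed throughout. Without a filter on low counts the edgeR adjusted p was 5.3e-208 for Postn and 1.2e-65 for Fn1, against 3.3e-09 and 5.3e-07 in the main fit. The p-values of that fit for Tnc, Thbs2 and Spp1 are therefore not on the footing of the others. The number called higher was 7 to 10, except 5 when tested against a minimum 1.5-fold change, which Tnc, Tnxb (0.37, adjusted p = 1) and Sparc (0.81, adjusted p = 0.081) did not pass. Over all genes 3244 were higher and 3238 lower, against 7409 and 1592 with library totals only and 894 and 848 with the minimum change. Signs turned for Itga6 (0.059), Tgfbr3 (0.26), Hsp90b1 (0.012) and the median of the ATF6 list (0.060) with library totals only. Tgfbr3 also turned with upper quartile scaling (0.018) and, with each library left out, ranged from -0.106 to 0.059, above 0 without Mst1-TG 1 or WT 1. Relative to collagens the log2 ratio turned for Thbs3 (-0.031), Tnc (-0.21), Spp1 (-0.12) and Sparc (-0.44), and relative to the activated fibroblast list without Acta2 for the same 4 genes (-0.83, -1.01, -0.92 and -1.24), Thbs1 (-0.17) and Fn1 (-0.71). Without Gsn it turned for Tnc (-0.061) and Sparc (-0.29). With each library left out, the log2 difference was 1.42 to 1.83 for Thbs1 to Thbs2, 3.04 to 3.48 for Thbs4 to Thbs3 and 0.32 to 0.92 for Tnc to Tnxb.

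Same-numbered libraries did not vary together (correlation of deviations -0.142 to 0.0746). With the replicate number as a block, Tnc was at 1.03 (adjusted p = 0.156) and did not pass, while Spp1 (1.05, adjusted p = 0.034) and Itgb6 (-0.95, adjusted p = 0.0025) passed. The Thbs1 to Thbs2 and Thbs4 to Thbs3 differences, paired by number, were 1.61 and 3.24 (exact p = 0.125, the smallest that 4 pairs can give). The log2 SE was largest for Spp1 (0.41), Tnc (0.38) and Thbs4 (0.38). Over the WT libraries these genes had 107, 568 and 930 counts, and Thbs3 had 886 with an SE of 0.10.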

Other observations

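Genes of activated fibroblasts, other than the 10 genes described, moved in both directions, beside 21.2% of all genes called higher and 21.1% called lower. Of 8 such markers 6 rose, with Cilp from 19.2 ± 4.22 to 335 ± 57.6 CPM (SD, n = 4 each; log2 4.12 ± 0.18, edgeR adjusted p = 6.5e-08), Meox1 by 2.05 ± 0.13 (SE) on the log2 scale and Cthrc1 from 0.964 ± 0.329 to 5.44 ± 1.03 CPM. Acta2, smooth muscle actin, which was singled out after its values were seen, fell from 487 ± 117 to 183 ± 57.0 CPM (SD, n = 4 each; log2 -1.41 ± 0.25, edgeR adjusted p = 0.0021), while Tagln did not pass (0.20 ± 0.09 SE, edgeR adjusted p = 0.075). Of the 7 markers of tendon, valve and cartilage, 4 rose and 3 did not pass. The transcription factors Scx and Sox9 rose by 1.90 ± 0.13 and 1.51 ± 0.19, and the tendon membrane protein Tnmd rose from 0.256 ± 0.176 to 2.44 ± 0.876 CPM (SD, n = 4 each; edgeR adjusted p = 2.0e-04). Those that did not pass were Cnmd (-0.59 ± 0.34), Chad (-0.03 ± 0.33) and Acan (0.31 ± 0.27, SE). For Cnmd every Mst1-TG library lay below every WT library.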
